A study of Arabidopsis thaliana with 4 samples.

Results

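The genes described here are 9 late embryogenesis abundant (LEA) genes of Arabidopsis thaliana that are not dehydrins, and all of them were measured. They were chosen by name, with earlier results of these data known. Each was read from the single probe set that the platform annotation pairs with that gene alone. They are 9 of 13286 genes that could be read in this way. Each of the 9 had 1 such probe set, so no choice between probe sets was needed, and all 9 passed the filter on low signal, as did 8625 genes in all.

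The series compared seeds of the Ler-0 (Landsberg erecta) background, stock NW20, that spent 96 h in the dark at 22 °C or at 4 °C. Biotin-labelled total RNA of each sample was read on 1 Affymetrix array. There were 2 arrays per temperature, called warm A and warm B at 22 °C and cold A and cold B at 4 °C, after the letters in the labels. The background, the darkness and the incubation time were shared by both groups, and only the temperature differed. The labels call the stage of all 4 samples dry seeds, and they do not say whether A and B came from separate seed lots, so the p-values measure a spread that may be technical. The number of arrays limits the precision.

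LEA proteins are small, very hydrophilic proteins that accumulate in embryos late in seed maturation, when the seed dries. Many have little fixed structure in water and fold as they lose it, and they are known for protecting enzymes and membranes during drying. Their transcripts are stored in the mature seed, respond to abscisic acid through factors of the basic leucine zipper (bZIP) class, and decline as a seed proceeds to germination. The members fall into families by sequence. AT2G42560, AT3G15670, AT5G44310, AT4G36600 and AT3G02480 belong to the LEA_4 family, LEA4-5 and LEA18 to LEA_1, AT3G22490 to the seed maturation proteins (SMP), and M10 to the small AtM family.

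Signals below are MAS5 probe set signals scaled so that the trimmed mean of each array is 500. Differences are on the log2(signal + 32) scale, where 1 unit is a 2-fold change for signals well above 32. Lower signal from a whole seed cannot tell fewer cells holding a transcript from less of it per cell. A member was set down as lost at 4 °C when both 4 °C arrays lay below both 22 °C arrays and their mean was at least 2 log2 units, a factor of 4, below warm A. It was set down as lost on warm B when that array was at least 2 units below warm A, and as kept when neither held. These sets describe the values and carry no test. No array came from seeds before the incubation, so lost means lower here and does not say which temperature changed the signal.

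By this rule 2 members were lost at 4 °C (AT2G42560 and AT3G22490), 3 were lost on warm B (AT5G44310, AT4G36600 and AT3G02480) and 4 were kept (AT3G15670, M10, LEA4-5 and LEA18), with none in both of the first sets. Of all 15847 probe sets tested, 5.24% were lost at 4 °C alone, 0.599% on warm B alone, 0.435% in both ways and 93.7% were kept. The members nearest to the limit were AT3G22490, at -1.88 on warm B against warm A, just outside, and AT5G44310, at -2.40, just inside. With median centring AT3G22490 was at -2.04, past the limit. The cold mean of AT5G44310 was also 2 units below warm A, at -2.10, but its cold and warm arrays overlapped, so it was not counted as lost at 4 °C.

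**Figure D1:**
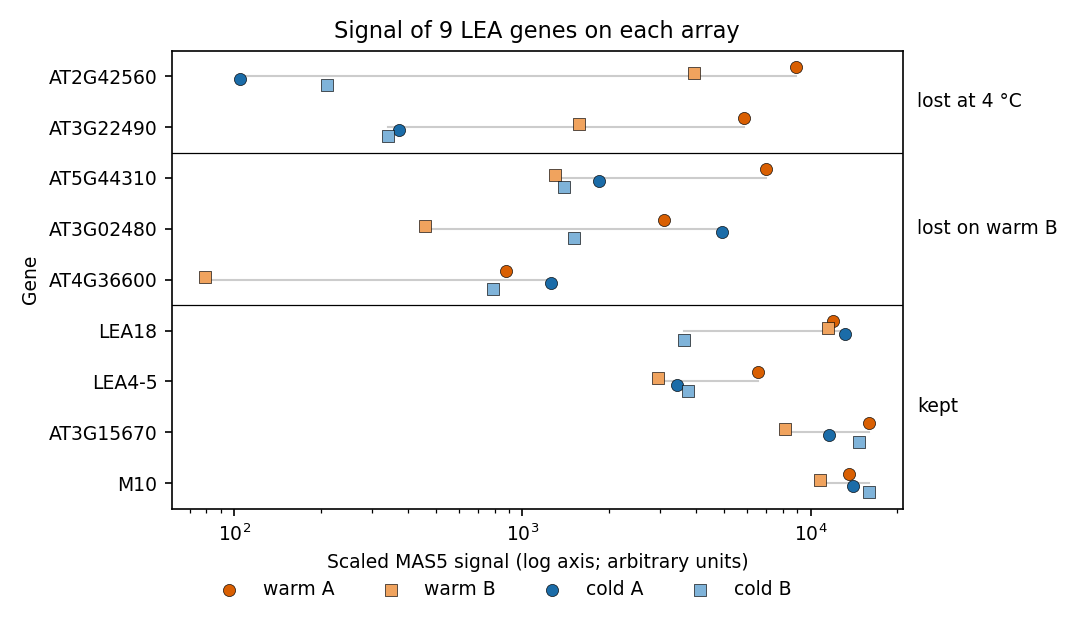
Scaled MAS5 signal (log axis) of the 9 LEA genes on each array, with warm arrays (22 °C) in orange, cold arrays (4 °C) in blue, A as circles and B as squares. Grey lines span the 4 arrays, from a 1.48-fold span for M10 to an 85.5-fold span for AT2G42560.

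AT2G42560, a LEA_4 gene, had signals of 8927 and 3929 on warm A and B and of 104 and 209 on cold A and B. Both cold arrays were far below both warm ones, with no overlap. The mean was 41.0 times lower at 4 °C (6428 ± 3534 against 156.7 ± 74.0, SD, n = 2), and the log2 difference, 4 °C minus 22 °C, was -5.04 ± 0.579 (SE; limma adjusted p = 0.0273). It was low against either warm array. The 4 °C mean was 57.0 times below warm A and 25.1 times below warm B. The call was lost when either 4 °C array was left out (adjusted p = 0.123 and 0.0936) and with no filter on low signal (0.0551), and over all settings the adjusted p ran from 1.28e-05 to 0.123.

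AT3G22490, a gene of the seed maturation protein family, had 5881 and 1572 on warm A and B and 372 and 341 on cold A and B. The cold arrays nearly coincided and lay below both warm arrays, which themselves differed 3.74-fold. Its mean was 10.5 times lower at 4 °C, with a log2 difference of -2.99 ± 0.659 (SE; limma adjusted p = 0.0474). Against warm B alone the 4 °C mean was 4.41 times lower, and against warm A alone 16.5 times. The call was lost with a pseudocount of 100 (adjusted p = 0.0658), without the variance trend (0.0515), with no filter (0.0838) and without cold A (0.254) or cold B (0.260).

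These 2 are the members that passed the limma test, both lower at 4 °C, against 2.34% of all probe sets called lower, 2.71% called higher and 5.05% called either way. No member was called higher. Without either cold array, or with no filter on low signal, neither these genes nor those of the lists named below passed. Both cold arrays lay below both warm ones at 2 of 9 members, where the share over all probe sets was 31.4%, and above both at 1 of 9, where that share was 25.7%. The median log2 difference over the 9 members was -0.30 against -0.13 over all probe sets. Their single values ran from -5.04 to 1.69, with 5 below 0 and 4 above. An exact permutation test of 2 arrays against 2 cannot go below p = 0.333, so none was used for single genes.

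AT5G44310, a LEA_4 gene, had 6999 on warm A but 1298 on warm B, against 1851 and 1398 on cold A and B. One warm array stood above the other 3, which lay close together, and warm B was the lowest of all. The ratio of warm A to B was 5.39. The difference between temperatures therefore changed with the warm array used. It was -0.90 ± 0.765 with all arrays (SE; limma adjusted p = 0.509), -2.10 without warm B and 0.30 without warm A.

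AT4G36600, also of the LEA_4 family, had 879 and 79.4 on warm A and B and 1257 and 789.6 on cold A and B. Here a single array was low, and the other 3 were within a factor of 1.59 of each other. The signal of warm A was 11.1 times that of warm B, the widest gap between warm arrays among the members. The temperature difference was 1.69 ± 0.908 (SE; limma adjusted p = 0.294), 0.18 without warm B and 3.21 without warm A.

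AT3G02480, another LEA_4 gene, had 3098 and 457 on warm A and B and 4939.9 and 1514 on cold A and B. At both temperatures B was the lower array, by 6.78 times at 22 °C and 3.26 times at 4 °C. The warm and cold ranges overlapped. The temperature difference was 1.16 ± 0.926 (SE; limma adjusted p = 0.479), 2.50 without warm A, -0.17 without warm B, 0.32 without cold A and 2.01 without cold B.

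Low signal on warm B was thus seen in more than one way. AT4G36600 and AT3G02480 had cold means 12.9 and 7.06 times above warm B and 1.16 and 1.04 times warm A. Each cold array of AT4G36600 lay near warm A. Those of AT3G02480 lay far apart, at 4939.9 on cold A and 1514 on cold B, against 3098 on warm A. AT5G44310 had a cold mean 1.25 times warm B and 0.232 times warm A, so that the cold values lay near warm B. For this gene the low values were shared by 3 of 4 arrays.

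**Figure D2:**
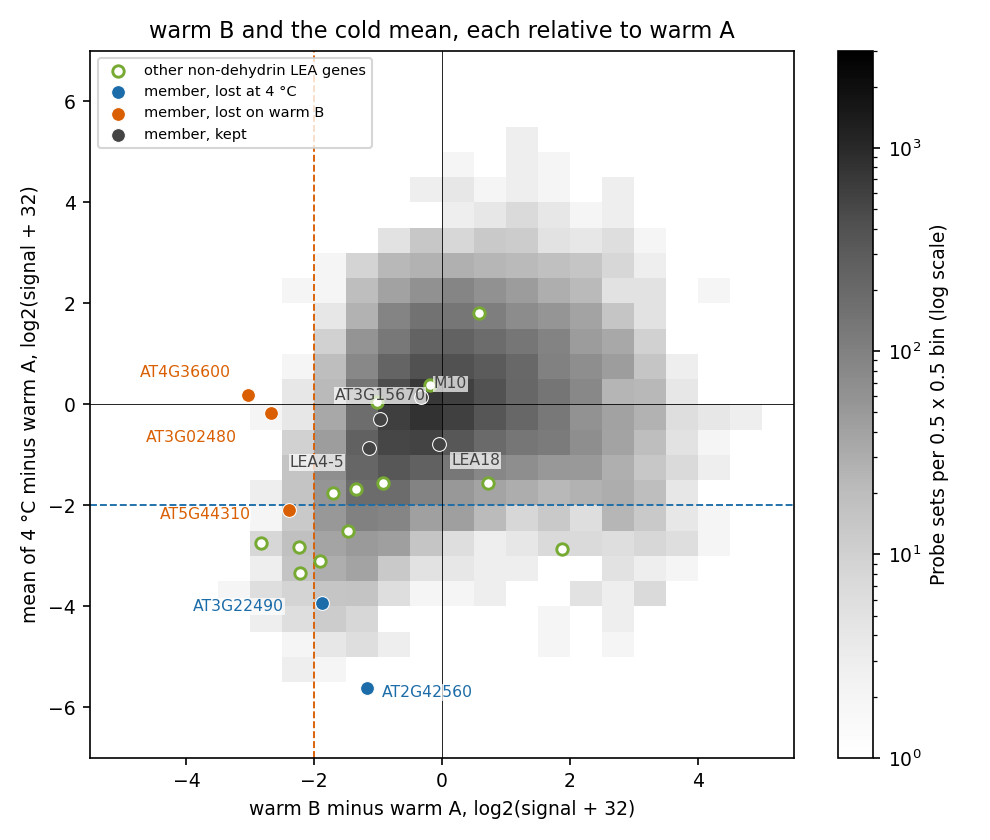
Each gene by its difference between the warm arrays (horizontal, B minus A) and the mean of the 4 °C arrays minus warm A (vertical), both on log2(signal + 32), over a grey count of all 15847 probe sets tested. Dashed lines mark -2; filled points are the members, with AT2G42560 at -5.63 on the vertical axis and AT4G36600 at -3.03 on the horizontal one, and open green points are 13 other LEA genes. Points below the blue line count as lost at 4 °C only if both cold arrays also lay below both warm ones.

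M10 was the steadiest member. Its signals were 13531 and 10788.5 on warm A and B and 14071 and 15986 on cold A and B. Both cold arrays were above both warm ones, by a mean ratio of 1.24 (12159.9 ± 1939 against 15028 ± 1354, SD, n = 2). The log2 difference of 0.31 ± 0.382 did not pass (SE; limma adjusted p = 0.659), and it ran from 0.15 to 0.47 over all settings.

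AT3G15670, a LEA_4 gene of high signal, had 15959.7 and 8149 on warm A and B and 11554 and 14732 on cold A and B. The cold values lay between the warm ones. The temperature difference was 0.19 ± 0.458 (SE; limma adjusted p = 0.837), and its sign turned with quantile normalization (-0.05) and without warm B (-0.29), while it was 0.68 without warm A.

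LEA4-5 encodes a LEA_1 protein whose loss is known to make Arabidopsis more sensitive to water deficit. Its signals were 6578 and 2963 on warm A and B and 3451 and 3739.9 on cold A and B. The cold arrays lay together between the warm ones, nearer to B. The difference was -0.30 ± 0.515 (SE; limma adjusted p = 0.767), -0.87 without warm B and 0.28 without warm A.

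LEA18, also known as LEA4-2 and of the same LEA_1 family, had 11964 and 11527 on warm A and B and 13132 and 3633 on cold A and B. Its warm arrays differed least among the members, by 1.04 times, and its low value was on cold B. The cold arrays differed 3.61-fold, the widest gap between cold arrays among the members. The temperature difference was -0.76 ± 0.613 (SE; limma adjusted p = 0.484), 0.16 without cold B and -1.68 without cold A.

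**Figure D3:**
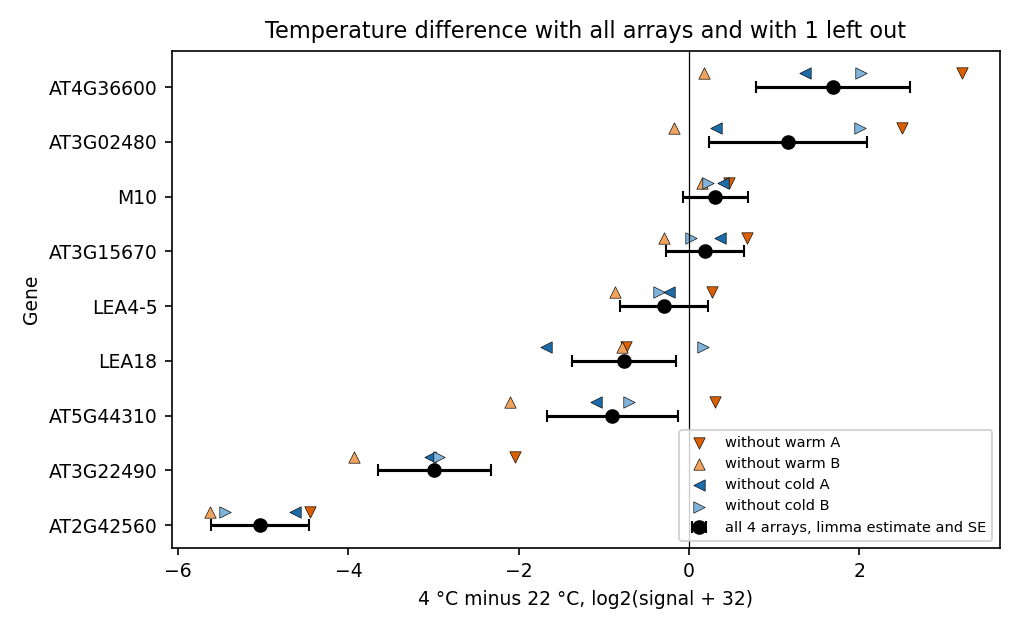
Log2 difference between temperatures (4 °C minus 22 °C) for each member with all 4 arrays (black, with the limma SE) and with 1 array left out (coloured triangles). AT2G42560 and AT3G22490 stayed below 0 throughout, M10 and AT4G36600 stayed above 0, and the other 5 members had values on both sides of 0.

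The comparison of the warm replicates sets 1 array against 1 and has no replicate check. All 9 members had a lower signal on warm B than on warm A, as did 52% of all probe sets. The median difference, B minus A, was -1.18 over the members and -0.05 over all probe sets, and the members ran from -3.03 for AT4G36600 to -0.05 for LEA18. With quantile normalization the median was -0.998 and 7 of 9 were lower, since M10 (0.02) and LEA18 (0.25) turned. At least 2 units lower on B were 3 of 9 members, or 33.3%, against 1.03% of all probe sets and 1.27% of those with a mean signal of at least 200. Gaps of that size ran mostly the other way over the whole array, where 6.86% of probe sets were at least 2 units higher on B. The members were chosen with earlier results of these data known, so their shares describe these 9 genes and carry no test.

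At 4 °C the same genes did not share a direction. Replicate B was lower than A at 5 of 9 members, as at 46.7% of all probe sets, and none was at least 2 units lower, as were 0.391% of all probe sets. The median difference was -0.11, with AT2G42560 the highest at 0.82 and LEA18 the lowest at -1.84. Over all probe sets B minus A had an SD of 1.1 for the warm pair and 0.646 for the cold pair, so gaps between the warm arrays were wide in general. The labels name no batch that separates warm A from warm B.

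**Figure D4:**
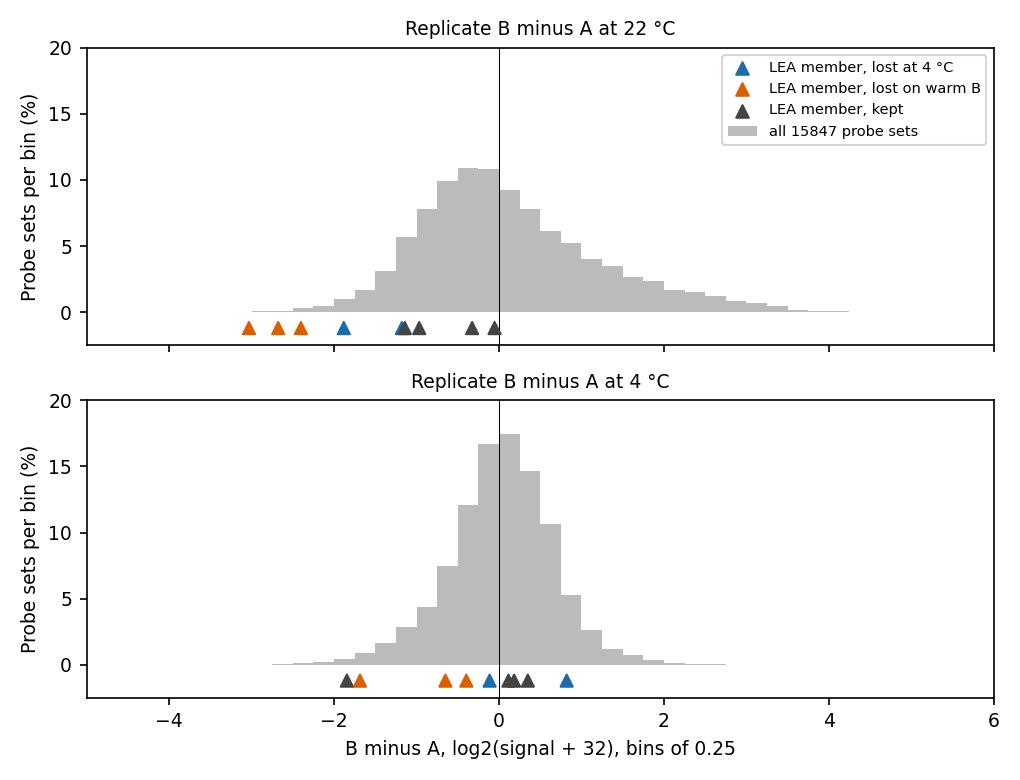
Difference between replicates (B minus A, log2(signal + 32)) at 22 °C (top) and 4 °C (bottom), with all 15847 probe sets as grey bars in percent per bin of 0.25 and the 9 members as triangles coloured by set. At 22 °C all triangles lie left of 0, from -3.03 to -0.05, and at 4 °C they lie on both sides, from -1.84 to 0.82.

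Genes of 1 family fell in different sets. The 5 LEA_4 members held 1 gene lost at 4 °C (AT2G42560), 3 lost on warm B and 1 kept (AT3G15670), and both LEA_1 members were kept. M10 lies next to M17, the other AtM gene, among the protein-coding genes of the RefSeq table. M17 had 9687 and 15953 on warm A and B and 5592 and 1906 on cold A and B, so that its cold arrays lay below both warm ones where those of M10 lay above. The log2 difference of M17, -1.92 ± 0.594, did not pass either (SE; limma adjusted p = 0.0991), and the difference between the neighbours was not tested. The probe sequences were not used here, so signal shared between related genes was not tested.

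Of 32 other non-dehydrin LEA genes listed by locus, 20 had a single-gene probe set and 13 passed the filter on low signal. Among those 13, 1 was called lower at 4 °C, none was called higher and 12 did not pass. Their median log2 difference was -1.33, and 6 had both cold arrays below both warm ones. Over all probe sets 2.34% were called lower, and 31.4% had both cold arrays below both warm ones. By set, 3 were lost at 4 °C, 1 on warm B, 2 in both ways, and 7 were kept. The rule counts no higher values and sets the cold mean against warm A alone, so kept does not mean unchanged. COR15B, named after its values were seen, was kept with 21.3 and 47.6 on warm A and B and 230 and 99.7 on cold A and B. Its log2 difference was 1.51 (limma adjusted p = 0.153). M17 was kept with its cold mean at -1.56 against warm A. AT2G44060, of the LEA_2 family, whose members are more folded than other LEA proteins, fell by 3.79 (SE 0.660; limma adjusted p = 0.0353). Its signals were 724 and 2738 on warm A and B and 52.5 and 96.9 on cold A and B. Unlike the 9 members, it was higher on warm B than on A. Its call was lost with a pseudocount of 100 (adjusted p = 0.0542), with no filter (0.0693) and without cold A (0.219) or cold B (0.189).

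The other LEA_4 genes that the naming rule picked were AT1G72100 and AT3G53040. AT1G72100 had 14692 and 3133 on warm A and B and 1352 and 1510.4 on cold A and B. AT3G53040 had 16324 and 4337 on the warm arrays and 2057 and 1719.8 on the cold ones. In both, the order was warm A, then warm B, then the cold arrays, as in AT3G22490. Their log2 differences of -2.22 and -2.14 did not pass the limma test (adjusted p = 0.107 and 0.0941). Without warm B the differences were -3.33 and -3.10, and without warm A they were -1.12 and -1.19.

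Low signal on warm B was also seen in this wider family. Of the 13 genes, 10 were lower on warm B than on A, with a median of -1.35, and 3 were lower by at least 2 units. Besides AT1G72100 these were AT4G21020, with 12249.9 on warm A and 1692 on warm B, and AT2G23110, with 6062 and 1262, both named after their values were seen. AT4G21020 had 2551 and 1260.1 on cold A and B, like AT5G44310 in that 3 arrays lay low, and AT2G23110 had 1072 and 631. Over all 22 non-dehydrin LEA genes that passed the filter, 19 were lower on warm B, and 6 were lower by at least 2 units. The shares over all probe sets were 52% and 1.03%.

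**Figure D5:**
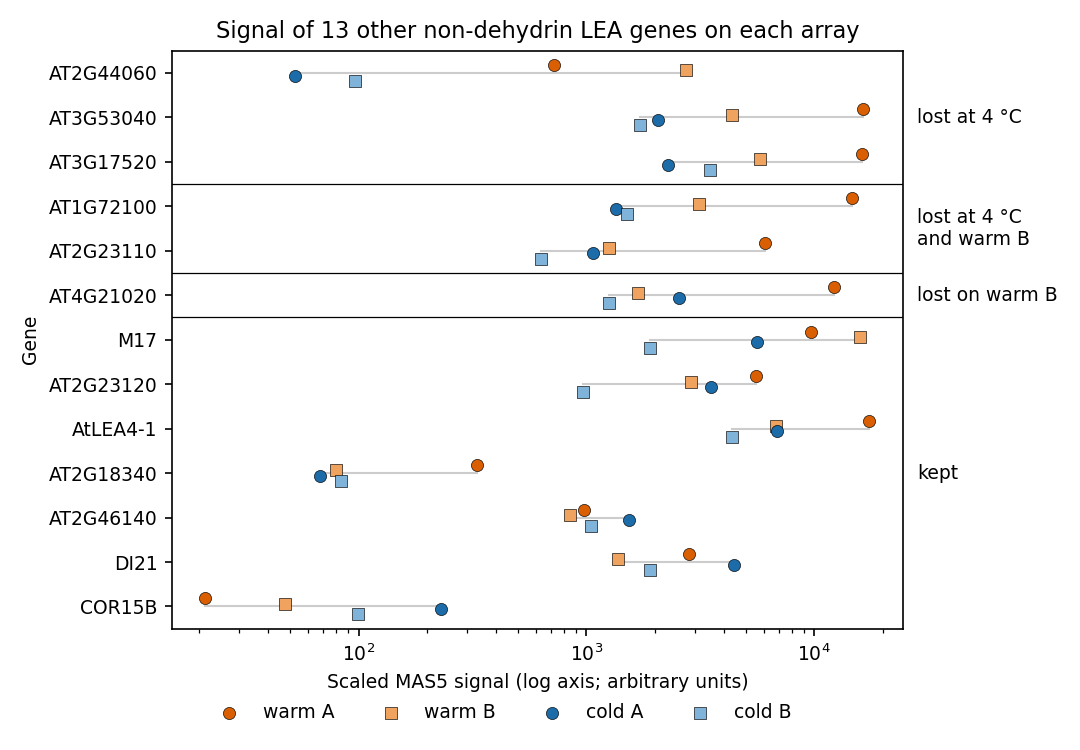
Scaled MAS5 signal (log axis) of the 13 other non-dehydrin LEA genes that passed the filter, with colours and shapes as for the 9 members. The genes from AT2G44060 down to AT4G21020 fall in the lost sets, and M17, AT2G44060 and COR15B are higher on warm B than on warm A.

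Dehydrins are the LEA family left out of the members. All 6 that had a probe set of their own passed the filter, 3 of these were lower on warm B, and their median B minus A was -0.03, with values from -2.72 to 3.83. The lowest value was that of AT4G39130, with 969 and 120 on warm A and B and 106 and 60.7 on cold A and B. LTI30, a cold-induced dehydrin, was the 1 called higher at 4 °C (log2 difference 3.39; limma adjusted p = 0.0317). The other 5 had both cold arrays below both warm ones without passing, where the share lying so over all probe sets was 31.4%. Among them AT4G38410, named after its values were seen, was near the filter limit of 64. It had 89.2 and 105 on warm A and B and 56.9 and 82.1 on cold A and B (log2 difference -0.36; limma adjusted p = 0.702). The nearest of the 5 to the threshold was AT1G54410, at 1940.1 ± 1262 and 274.9 ± 94.2 (SD, n = 2; limma adjusted p = 0.0527). It was higher on warm B, by 1.41 log2 units, and its call was made in 6 of 14 settings. COR47 had the highest B minus A, with 285 on warm A and 4486 on warm B and 183 and 150.5 on the cold arrays. Its log2 difference between temperatures was -2.60, which was -0.68 without warm B and -4.51 without warm A.

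Other seed transcripts were read on the same arrays, too few of them to check the tissue or the warm arrays. Of 14 storage protein and oleosin loci 3 could be read from a single-gene probe set, and none passed the test between temperatures. The oleosin gene AT3G01570, which coats seed oil bodies, had 12746 and 15419 on warm A and B and 13059 and 11126 on cold A and B, high on every array. The cruciferin-like gene AT1G03890 had 1049 and 879.8 on the warm arrays and 404 and 748 on the cold ones, and its difference did not pass. OLEO3, another oleosin gene, had 1305 and 1838 on the warm arrays and 348 and 658 on the cold ones, so that both cold arrays lay below both warm ones. Its log2 difference was -1.63 (limma adjusted p = 0.103), and -1.87 without warm A. The 3 storage and oleosin transcripts measured had a median B minus A of 0.27 at 22 °C, from -0.25 to 0.48, where the 9 LEA genes had -1.18. ATOEP16-2, a plastid outer envelope channel of seeds, had 13497 and 3305 on warm A and B and 3791 and 3342 on cold A and B, again warm A high and 3 arrays low. Its B minus A at 22 °C was -2.02, and the regulators EEL and BZIP53, taken up below, had -0.74 and -0.92. Of the 13 leaf photosynthesis loci listed, only LHCB4.1 had a single-gene probe set. Its signals were 3717 and 3835 on the warm arrays and 290 and 215 on the cold ones. It was thus lower at 4 °C (log2 difference -3.76; limma adjusted p = 0.0279), while warm A was at 0.969 times warm B. Its part in the LEA values was not tested.

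Of 23 listed regulators of seed maturation and abscisic acid response 2 were measured, and both are bZIP factors. EEL, which binds the promoters of Em-type LEA genes and counteracts the activator ABI5 there, fell by 4.16 (SE 0.486; limma adjusted p = 0.0273). It had 4552 and 2713 on warm A and B and 179 and 155 on cold A and B. Its call was lost without either 4 °C array (adjusted p = 0.150 and 0.160) and with no filter (0.0551). BZIP53, an activator of seed maturation genes, had 4034 and 2111 on the warm arrays and 867 and 504 on the cold ones (log2 difference -2.09; limma adjusted p = 0.0658). It passed in 4 of 14 settings, among them a filter at 200 (limma adjusted p = 0.0468). The settings without warm A or without warm B, which leave 1 warm array, were also among them. Both factors had their cold arrays below both warm ones, and both were lower on warm B than on A, by 1.68 and 1.91 times. Over all probe sets 31.4% had both cold arrays below both warm ones, 52% were lower on warm B and 2.34% were called lower at 4 °C. A link between these 2 factors and the LEA values was not tested.

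Genes with a profile over the 4 arrays most like that of each set were sought by the smallest distance, in log2 units and after centring each gene on its own mean. They describe 4 arrays only. As the nearest of all genes that passed the filter, they can lie nearer than members through selection alone. For the genes lost at 4 °C, AT1G22430, AT4G36700 and AT5G45310 lay at distances of 0.239, 0.344 and 0.414 from the median profile. Both members of that set lay at 1.11, an equality fixed in advance because the median of a pair is its midpoint. AT5G45310, for example, had 12941 and 5732 on warm A and B and 521 and 482 on cold A and B, a pattern it was picked for. For the genes lost on warm B, AT1G04770, AT5G42060 and AT5G37590 lay at 0.618, 0.675 and 0.778, with members between 0.253 and 2.08. The signal of AT5G42060 on warm B was weak, at 41.2. For the kept genes, AT3G62730, AT1G23230 and AT1G48040 lay within 0.0814 of the median profile, with members between 0.294 and 1.65. The 3 genes nearest to the kept set were 2.17, 1.84 and 2.01 times higher on warm A than on warm B, with the cold arrays in between. That order follows from their selection by likeness to the set's profile and is no separate result.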

How the data were processed

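Per the submitters' processing notes, the deposited intensity values were made with MAS5; no version, background handling or detection calls are given in the sources used here. The 2% trimmed mean was 100 on every array, as found from the values. Each array was rescaled to a trimmed mean of 500 and 64 control probe sets were dropped. The 15847 of 22746 probe sets with a mean of at least 64 were tested as log2(signal + 32). limma 3.58.1 in R 4.3.3 (lmFit, eBayes with trend, no covariate) fitted 4 °C minus 22 °C on all 4 arrays. Benjamini-Hochberg adjustment ran over all probe sets tested, with a threshold of 0.05. The fit was tried on simulated data with normal noise of equal spread on all 4 arrays. Those data do not cover the wider spread of the warm pair. Of 13513 single-gene probe sets, 13436 were found in RefSeq (TAIR10.1), which gave the symbols. The members, lists and sets were chosen with earlier results of these data known. Named genes are the members, up to 4 per list by absolute log2 difference, and the 3 nearest to each set's median profile. A few others, marked as such, were named after their values were seen. Promoter and protein sequences were not analysed here. Alternatives were other pseudocounts, filters, normalizations and variance settings, a replicate block, each array left out, and set limits of 1 and 3 units.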

Additional observations from a re-analysis of the deposited data

How the results depend on the processing

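All alternatives were planned. Against 801 calls over all probe sets (371 lower, 430 higher) there were 226 with a pseudocount of 100, 2 with no filter, 1266 with a filter at 200 and 2879 with the replicate block; leaving out 1 array gave 1 to 4142. Against 2 members called there was 1 with a pseudocount of 100 and 1 without trend (AT2G42560 in both), and 0 with no filter in limma, where both had an unadjusted p under 0.05. Leaving out 1 array gave 0 to 4, with 0 without cold A or cold B (3 and 2 at an unadjusted p under 0.05) and 4 without warm A, where AT4G36600 and AT3G02480 joined as higher. With 1 array left at a temperature, its spread was taken from the pair at the other one, so such calls do not measure the spread there. The labels give no pairing by letter. B minus A at one temperature correlated with B minus A at the other over probe sets with r = 0.209, and with the letter as a replicate block AT4G36600 also passed (adjusted p = 0.0441). Of all 15847 probe sets, 2879 passed with this block. In the other lists only genes picked by the naming rule, or for a low value on warm B, were read with it. Among those, 9 more passed, all lower at 4 °C: AT1G72100 (0.0109), AT3G53040 (0.0084), M17 (0.0178), AT2G23110 (0.0351), COR47 (0.0116), AT1G54410 (0.00387), AT4G39130 (0.0286), OLEO3 (0.0346) and BZIP53 (0.00909). AT1G54410 passed as well with a pseudocount of 0 (0.0446), a filter at 200 (0.0259), median centring (0.0438) and without warm A or warm B, where 1 warm array was left. The members' median of -0.30 ran from -0.79 to 0.30 with 1 array left out, turning without warm A (0.30) and without cold B (0.02). With 1 array left out, the log2 difference of AT3G15670 ran from -0.29 to 0.68, of AT5G44310 from -2.10 to 0.30, of AT3G02480 from -0.17 to 2.50, of LEA4-5 from -0.87 to 0.28, of LEA18 from -1.68 to 0.16, of ATOEP16-2 from -1.91 to 0.11 and of AT4G21020 from -2.75 to 0.0838, so all 7 turned. With quantile normalization AT3G15670 was at -0.0528. The cause was not tested. With a limit of 1 unit, AT2G42560 and AT3G22490 counted as lost both at 4 °C and on warm B (2 in both, 0 at 4 °C alone) and LEA4-5 moved from kept to lost on warm B (4 lost there, 3 kept); with 3 units AT5G44310 and AT3G02480 counted as kept and 1 gene, AT4G36600, was lost on warm B. Every member stayed in its set with quantile normalization or a pseudocount of 100. Sets were not drawn up with median centring, where AT3G22490 was at -2.04 on warm B against warm A, past the limit for warm B. The medians of B minus A moved by less than the spread between replicates. Without detection calls, signals near background, such as 79.4 for AT4G36600 on warm B, have no stated floor, so the folds against them are uncertain.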
